A study of Drosophila melanogaster and Nicrophorus vespilloides with 16 samples.

Results

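The 10 nicotinic acetylcholine receptor subunit genes of Drosophila melanogaster, nAChRalpha1 to nAChRalpha7 and nAChRbeta1 to nAChRbeta3, were searched for peaks of trimethylation of lysine 4 of histone H3 (H3K4me3). The genes were taken by symbol from a RefSeq gene table, where they are 10 of 13922 protein-coding genes on the 6 main chromosome arms. A gene was counted as holding or neighbouring a peak when a peak summit, the single base of highest enrichment in a called peak, lay inside the gene or within 1 kb of either of its ends. Whole larvae of the third instar, all of the Oregon-R strain, gave the 4 replicates, each of 30 pooled larvae, and no group with another genotype or treatment was included. Chromatin fixed in 1% formaldehyde for 10 min was immunoprecipitated on a solid-state filter with an H3K4me3 antibody, and each library came with its own list of summits and scores. The series also holds brains of the beetle Nicrophorus vespilloides and input libraries, which were not used here.

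Nicotinic receptors are ligand-gated cation channels assembled from several subunits around a central pore, and they belong to the Cys-loop family together with GABA-, glutamate- and histamine-gated channels. In insects acetylcholine is the main fast excitatory transmitter of the central nervous system, whereas the neuromuscular junction of the fly uses glutamate. Alpha subunits carry a pair of adjacent cysteines in the ligand-binding site, and beta subunits lack it. Several fly subunits are known as insecticide targets, nAChRalpha6 for spinosyns and nAChRalpha1 and nAChRbeta1 among those for neonicotinoids. H3K4me3 is found at the starts of active genes, so a summit near a gene end marks a candidate active start. The gene table used here gives no strand, so which end is the start was not determined, and no sequence is shown.

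Fly replicates 1 to 4 listed 3518, 4969, 5236 and 5313 summits. Each summit carried a score from the authors, a p-value or q-value written as its −log10, which depends on sequencing depth, and the depth is unknown. Scores are therefore given side by side as values and compared through the percentile of a summit among all summits of its own replicate. In replicates 1 to 4, 36.6%, 44.8%, 47.9% and 50.1% of protein-coding genes had a summit inside or within 1 kb.

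H3K4me3 summits were counted for 3 of the 10 receptor genes in whole larvae. Of all protein-coding genes 51.5% had a summit in at least 1 replicate. Of the 10 genes 2, nAChRalpha6 and nAChRbeta3, were marked, meaning that a summit was counted in at least 3 of the 4 replicates, where 44.9% of all protein-coding genes were marked and 32.0% of those at least as long as the median receptor gene. Both had a summit in all 4 replicates, where 34.6% of all protein-coding genes did, and in each case every summit lay inside a neighbouring gene and not in the receptor gene. A further gene, nAChRalpha4, had a summit in 2 replicates, and the other 7 genes had none in any replicate, where 48.5% of all protein-coding genes had none and 50.3% of those at least as long as the median receptor gene. No receptor gene held a summit inside its own span in at least 3 replicates, against 32.7% of all protein-coding genes. All receptor genes except nAChRalpha4 held no summit inside in any replicate, where 56.7% of all protein-coding genes held none. In all, 10 of the 19036 summits in the 4 lists were counted for receptor genes, and 8 of these 10 lay in a neighbour. The 8 lay in Spp and CG13123, once each per replicate, so they are repeats across replicates and not separate peaks. In bulk larvae, fewer cells carrying the mark and less mark per cell cannot be told apart. The lists give the summit of each peak and not its width, so a peak with its summit outside a gene can extend into it. A gene without a summit inside is thus not shown to lack the mark.

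**Figure D1:**
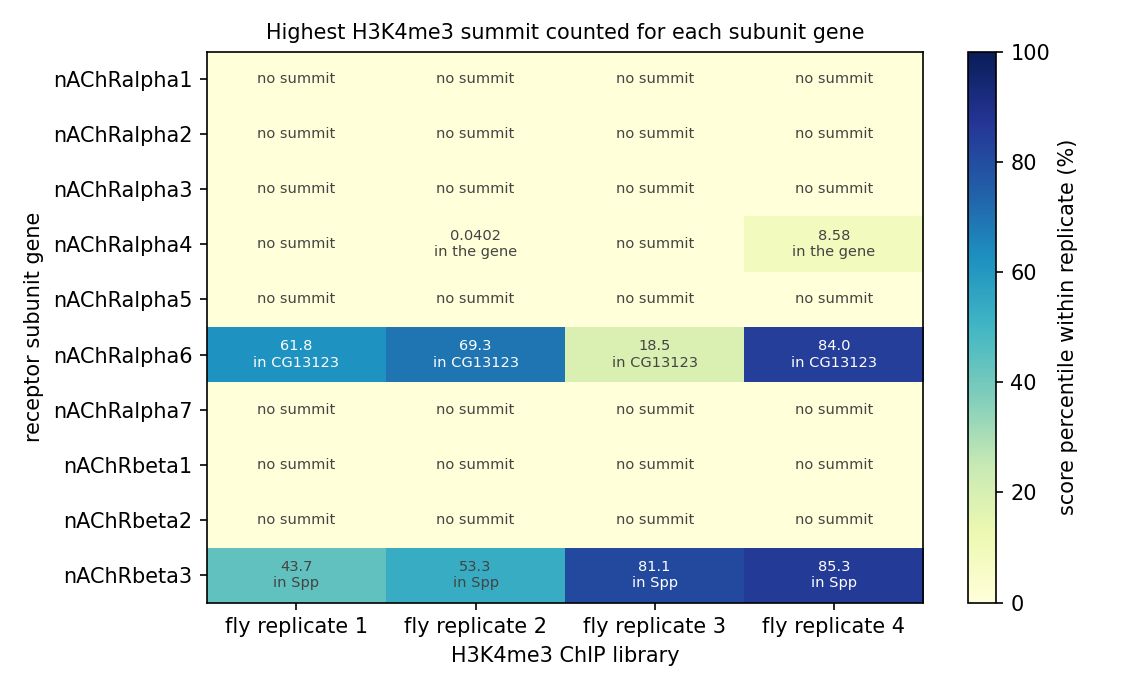
Score percentile, within each fly replicate (columns), of the highest H3K4me3 summit counted for each receptor subunit gene (rows), with the gene that holds the summit written in the cell. Filled values stand in all 4 replicates of nAChRalpha6 (18.5 to 84.02) and nAChRbeta3 (43.7 to 85.3), in 2 replicates of nAChRalpha4, and nowhere else.

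The subunit gene with the highest mean percentile was nAChRbeta3, whose product is a divergent beta subunit of the fly. The gene is short, 1.97 kb on chromosome 2L from 545129 to 547096 (Release 6), and lies wholly within the span of Ets21C, which encodes an ETS-domain transcription factor. Its counted summits were at positions 544442, 544224, 544513 and 544421 in replicates 1 to 4, a spread of 289 bp. All 4 lay inside Spp, the gene of the intramembrane protease signal peptide peptidase, 140 to 429 bp from its nearer end. They were 616 to 905 bp outside nAChRbeta3, and Spp itself ends 476 bp before nAChRbeta3 begins. An end of Ets21C, at 544925, also lay within 1 kb of all 4 summits and was nearer to them than nAChRbeta3. The scores were 5.57, 9.14, 23.0 and 40.8 in replicates 1 to 4, which placed the summit at percentiles of 43.7, 53.3, 81.1 and 85.3. The summit was thus near the middle of the list in replicates 1 and 2 and in the upper part of the list in replicates 3 and 4. The mean percentile was 65.9 ± 20.5 (SD, n = 4), which is above that of 61.3% of marked protein-coding genes. Neither nAChRbeta3 nor Ets21C held a summit inside its span in any replicate.

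The longest of the subunit genes was nAChRalpha6, the gene of the spinosyn target, with 92.9 kb on 2L from 9793317 to 9886250. Its summits were at positions 9792963, 9792946, 9792938 and 9792930 in replicates 1 to 4, within 33 bp of each other. All 4 lay inside CG13123, a gene that ends 210 bp before nAChRalpha6 begins, and they were 144 to 177 bp from the nearer end of CG13123 and 354 to 387 bp outside nAChRalpha6. In replicates 2, 3 and 4 the summit was also within 1 kb of an end of CG4036, the next gene. Scores of 6.77, 11.3, 8.12 and 40.0 in replicates 1 to 4 gave percentiles of 61.8, 69.3, 18.5 and 84.02. Replicate 3 stood lower than the other replicates, so the position repeated closely while the rank did not. The mean percentile was 58.4 ± 28.1 (SD, n = 4), close to the median of 59.9 over all marked protein-coding genes, and without replicate 3 it was 71.7.

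At its other end nAChRalpha6 had a further neighbour with a summit, outside the 1 kb limit. Fkbp59, which encodes an FK506-binding immunophilin, held a summit at positions 9888219, 9888245 and 9888213 in replicates 2, 3 and 4. These lay 1963 to 1995 bp outside nAChRalpha6, at a mean percentile of 68.1 ± 6.01 (SD, n = 3). Between the summits in CG13123 and Fkbp59 no summit was listed over 95.3 kb, which covers all of nAChRalpha6 and the lncRNA genes inside it and beside it.

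The order of nAChRbeta3 and nAChRalpha6 was not resolved. Their mean percentiles differed by 7.45, less than the SD of either gene, and nAChRbeta3 was the higher in 2 of 4 replicates. Both stood above nAChRalpha4 in 4 of 4 replicates, but in replicates 1 and 3 nAChRalpha4 had no summit and was set to 0. The summits ranked for nAChRbeta3 and nAChRalpha6 lie inside Spp and CG13123, so this does not order mark inside the receptor genes. A marked gene with no summit inside its own span in any replicate is the less common case, at 14.4% of marked protein-coding genes, and both marked receptor genes were of this kind.

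The single receptor gene that held summits itself was nAChRalpha4, known in the fly also as redeye from its role in sleep. It covers 80.8 kb of 3L from 23206669 to 23287448. Replicate 2 had a summit at 23219720 and replicate 4 at 23220495, and replicates 1 and 3 had none. The summits lay 775 bp apart, 13051 and 13826 bp inside the gene, with no other gene at either position. Their scores were 1.35 and 6.12. The score in replicate 2 was the lowest of that replicate's list, and the one in replicate 4 had 455 of 5313 summits below it, a percentile of 8.58. Because they were more than 250 bp apart they did not count as the same site, so no site inside nAChRalpha4 was found in more than 1 replicate. In replicates 2 and 4, 4.13% and 7.75% of all summits lay more than 1 kb from any end of a protein-coding gene, as these do. A summit inside the gene in any replicate with none within 1 kb of an end was seen at nAChRalpha4 and at 1.47% of all protein-coding genes, or 11.4% of those at least as long as the median receptor gene. With replicate 1 or replicate 3 left out and a summit asked for in 2 of the remaining 3 replicates, nAChRalpha4 became the third marked gene and the 1 gene with a summit inside.

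**Figure D2:**
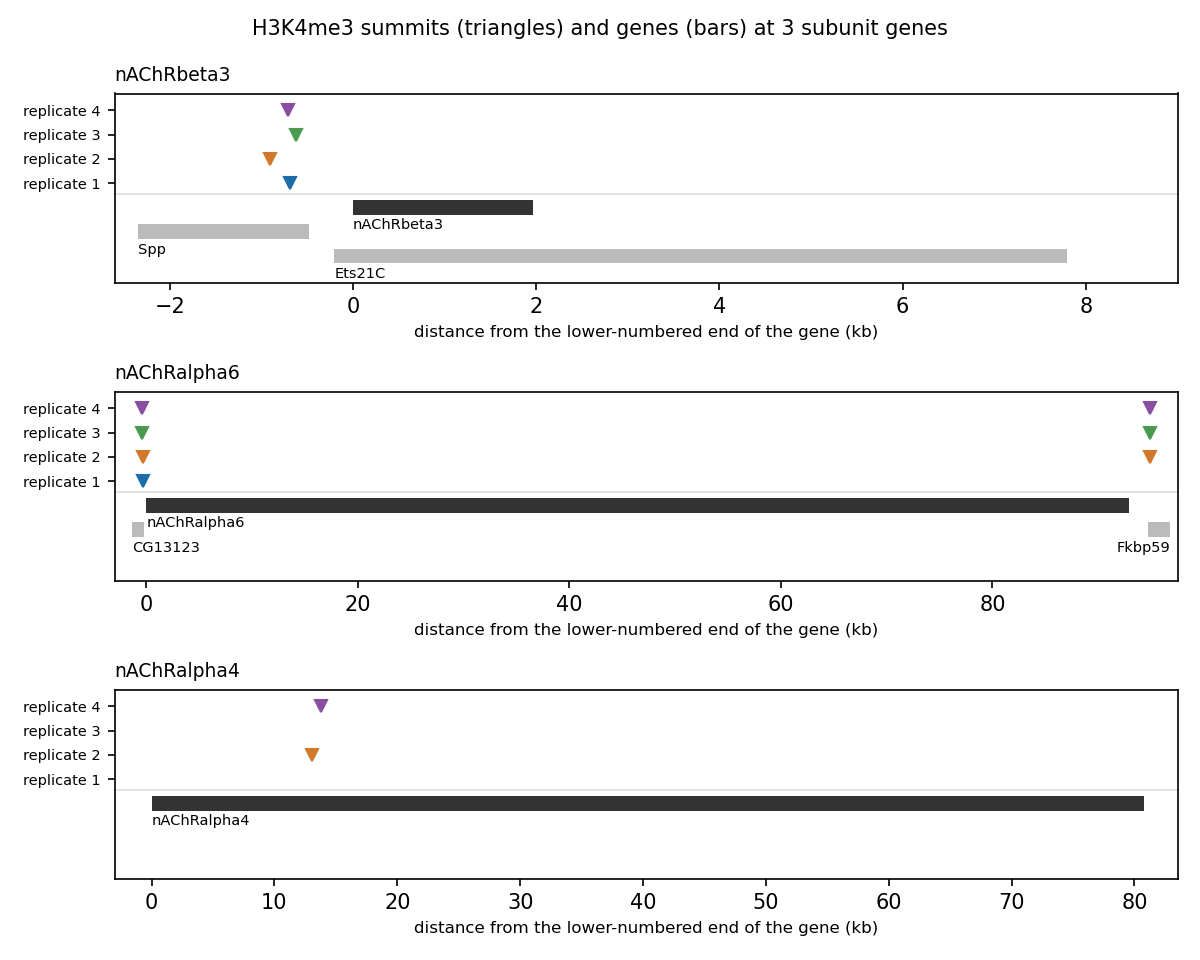
Summits (triangles, 1 row per fly replicate) and protein-coding genes (bars, the receptor gene dark) against the distance in kb from the lower-numbered end of nAChRbeta3, nAChRalpha6 and nAChRalpha4. The summits of nAChRbeta3 and nAChRalpha6 stand over the neighbours Spp, CG13123 and Fkbp59, and those of nAChRalpha4 stand inside the gene in replicates 2 and 4.

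On 3R, nAChRalpha1, nAChRalpha2 and nAChRbeta2 lie in a group of 121 kb, from 24393896 to 24515106, and none of them had a summit. nAChRalpha1 and nAChRalpha2 encode alpha subunits of the neuronal receptor, and nAChRbeta2 encodes a beta subunit. The group with 1 kb beyond it on either side held 0 summits in the 4 lists together. It also holds CG31128 and mir-1017, a mirtron microRNA gene within nAChRalpha2. The last summit before it, at 24360054 in replicate 4, was inside CG18528, and the first after it, at 24518422 in replicate 2, was inside Pp1alpha-96A, which encodes a catalytic subunit of protein phosphatase 1. These bound a stretch of 158 kb without a summit in any replicate.

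The nearest of the group to a summit was nAChRbeta2. Its distance to the nearest summit was 13.03, 3.32, 3.32 and 3.37 kb in replicates 1 to 4, with the summit inside Pp1alpha-96A in replicates 2, 3 and 4. In those replicates that summit stood at percentiles of 21.5, 86.7 and 90.4. DZIP1, a gene of ciliary basal bodies that lies 172 bp from nAChRbeta2 and between it and Pp1alpha-96A, held no summit. For nAChRalpha1 the nearest summit was 33.8 to 36.3 kb away, and for nAChRalpha2 it was 27.3 to 37.0 kb away.

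Of the genes on X, nAChRalpha3 covers 91.0 kb from 8276200 to 8367169 and nAChRalpha7, whose product is needed in the giant-fibre escape circuit, covers 21.4 kb from 19327075 to 19348447. Neither had a summit. nAChRalpha3 overlaps its neighbour CG1636 by 251 bp, and CG1636 held a summit in 4 of 4 replicates. That summit, at positions 8273615, 8273728, 8273625 and 8273659, lay where CG1636 and CG15343 overlap, at the end of CG1636 that faces away from nAChRalpha3. It was 2.47 to 2.59 kb outside nAChRalpha3, at percentiles of 82.2, 5.44, 85.4 and 56.0 in replicates 1 to 4. nAChRalpha7 had no coding gene within 1 kb, and its nearest summit lay 50.3 to 50.4 kb away, inside CG32536 in all 4 replicates.

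The remaining genes without a summit were nAChRalpha5 on 2L, 54.2 kb from 14040170 to 14094401, and nAChRbeta1 on 3L, 6.65 kb from 4429349 to 4435993. The product of nAChRalpha5 is close to the vertebrate alpha7 type, and that of nAChRbeta1 was the first fly beta subunit known, under the name ARD. nAChRalpha5 was the receptor gene farthest from any summit, at 204, 136, 136 and 61.9 kb in replicates 1 to 4. The flanking summits of the 4 lists were 256 kb apart, and NimC4, a gene of the Nimrod family of phagocytic receptors that lies inside nAChRalpha5, held none either. For nAChRbeta1 the nearest summit was 14.4 kb away in replicate 4 and 23.4 to 23.5 kb away in the other 3. Its neighbour CG15021, at a gap of 728 bp, held no summit.

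**Figure D3:**
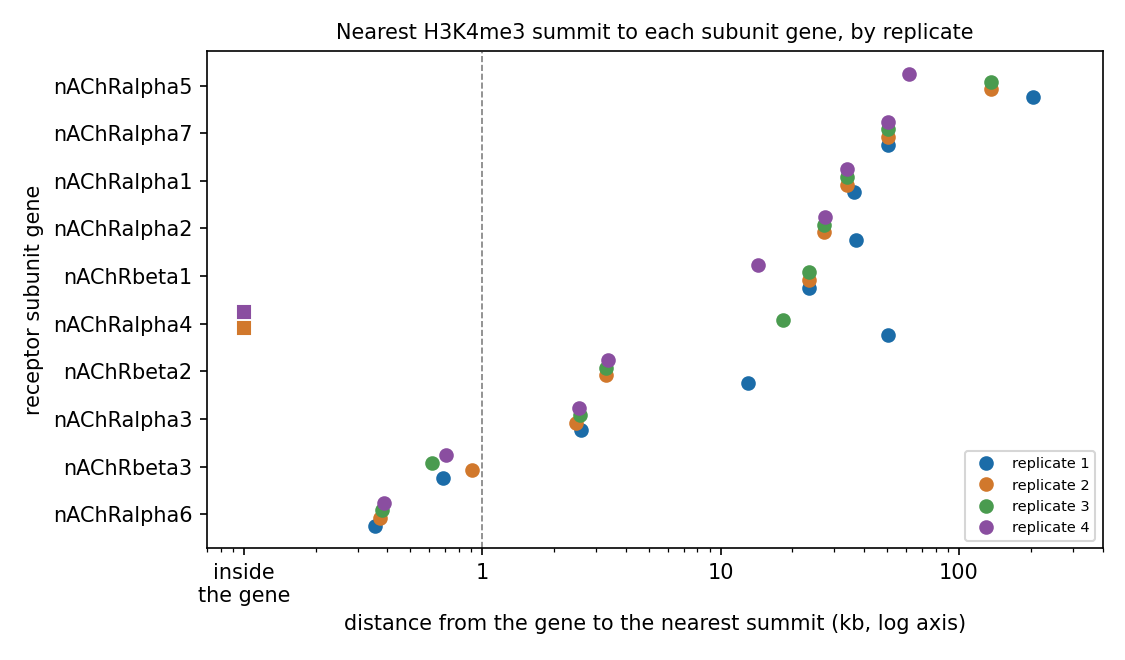
Distance in kb (log axis) from each receptor subunit gene to the nearest H3K4me3 summit in each fly replicate, with squares for summits inside the gene and a dashed line at 1 kb. Points left of the line belong to nAChRalpha6, nAChRbeta3 and replicates 2 and 4 of nAChRalpha4, while nAChRalpha5 lies farthest to the right, at 61.9 to 204 kb.

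In the 4 lists pooled, 7 of the 10 receptor genes lay wholly within a summit-free stretch of at least 100 kb, a limit chosen after the values were seen. Of all protein-coding genes 23.0% lay in such a stretch, of those at least as long as the median receptor gene 41.5%, and of those without a summit in any replicate 45.7%. The 7 genes are the ones without a summit, and 3 of them share the stretch on 3R, so this count is a description of where they lie. Distances from gene to nearest summit were nearly the same in all replicates for nAChRalpha1, nAChRalpha3, nAChRalpha6 and nAChRalpha7. They differed more than 3-fold between replicates for nAChRalpha5 and nAChRbeta2, and for nAChRalpha4 they were 50.5 and 18.3 kb in replicates 1 and 3, against summits inside the gene in replicates 2 and 4.

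Most of the subunit genes are long, but not all. Their median length was 37.8 kb, from 1.97 to 92.9 kb, against a median of 2.16 kb for all protein-coding genes. Of the 10, 5 exceed 50 kb and 4 are under 10 kb. Among the 491 protein-coding genes at least as long as the median receptor gene 20.6% held a summit inside in at least 3 replicates. Among the 7504 genes at least as long as the shortest receptor gene, nAChRbeta3, 51.4% were marked. In length classes set after the values were seen, 1 of 5 receptor genes of 50 kb or more was marked, beside 32.4% of protein-coding genes of that length. The 1 receptor gene under 2 kb, nAChRbeta3, was marked, where 37.4% of protein-coding genes were, and the 1 of 20 to 50 kb, nAChRalpha7, was not, where 34.6% were. None of the 3 receptor genes between 5 and 20 kb was marked, nAChRalpha2, nAChRbeta1 and nAChRbeta2, where 51.2% of protein-coding genes were.

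**Figure D4:**
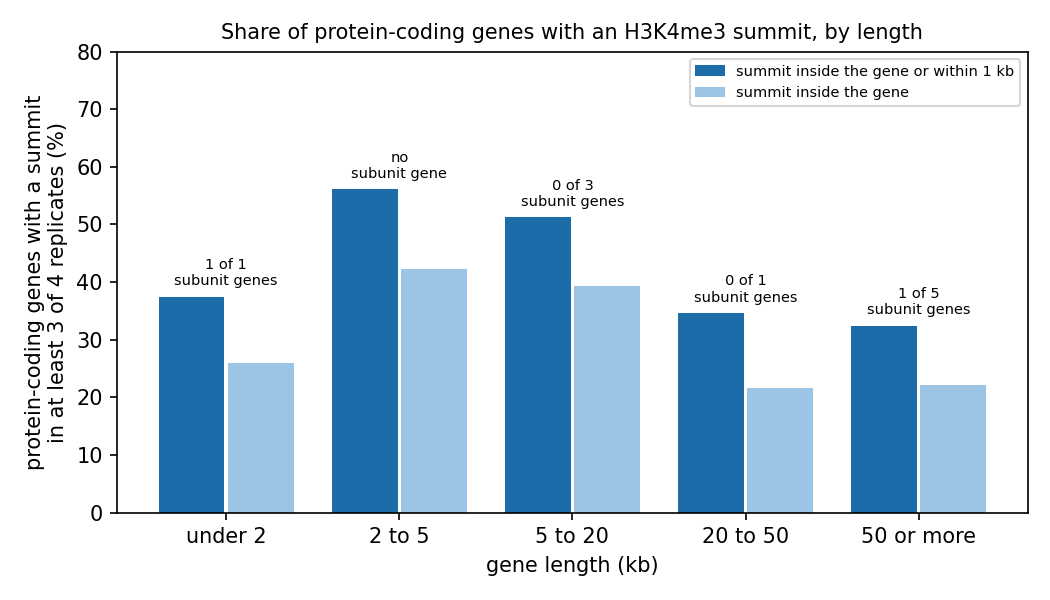
Percent of protein-coding genes with an H3K4me3 summit in at least 3 of 4 fly replicates, by gene length in kb, inside the gene or within 1 kb (dark bars) and inside the gene (light bars), with the number of marked receptor genes above each class. The share marked is 37.4% under 2 kb, highest at 56.1% at 2 to 5 kb and 32.4% at 50 kb or more, and the class of 5 to 20 kb holds 3 receptor genes, none of them marked.

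The genes close to the receptor genes differed among themselves. Of 8 protein-coding genes that overlap a receptor gene or lie within 1 kb of it, CG1636, CG13123 and Spp held a summit in all 4 replicates. Of all protein-coding genes 32.7% held one inside in at least 3 replicates. The other 5 of the 8, CG13616, NimC4, CG15021, DZIP1 and Ets21C, held none in any replicate, where 56.7% of all protein-coding genes held none. None of 7 non-coding genes inside or beside the receptor genes held a summit. For those inside nAChRalpha1, nAChRalpha2, nAChRalpha3 and nAChRalpha6, as for NimC4 inside nAChRalpha5, this follows from the empty spans of the receptor genes. Of the non-coding genes, lncRNA:CR45950 and lncRNA:CR43455 are listed at the same positions. No share over all non-coding genes is given here. Of the 3 receptor genes with no protein-coding gene within 1 kb, nAChRalpha2 and nAChRalpha7 had no summit, and nAChRalpha4 had those in replicates 2 and 4.

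Among other genes of cholinergic transmission, none of those for making, loading or breaking down acetylcholine had a summit. Of 13 genes in the list 3 were marked, Hasp, RIC-3 and Adar, where 44.9% of all protein-coding genes were. RIC-3, which encodes a chaperone of nicotinic receptor assembly, had a highest summit at percentiles of 85.8, 95.0, 89.6 and 61.5 in replicates 1 to 4, but all its summits lay inside its neighbours ND-B14.7 and Sou. Hasp, a matrix protein of the cholinergic synaptic cleft, had 23.1, 90.0, 72.8 and 97.6 in replicates 1 to 4, with every summit inside cyst. Adar, the RNA-editing enzyme that acts on many neuronal channel transcripts, held a summit inside its span in 3 replicates, where it overlaps prage, at percentiles of 52.3, 4.14 and 17.4 in replicates 2 to 4. qvr, a Ly6-type modulator of channels, had a summit in replicates 3 and 4, inside E(Pc), and hig had one in replicate 2, where it overlaps Cyp4p2. The other 8 genes had none, where 48.5% of all protein-coding genes had none. They are ChAT and VAChT for synthesis and vesicle loading of acetylcholine, ChT for choline uptake, Ace for its breakdown, the muscarinic receptor genes mAChR-A, mAChR-B and mAChR-C, and twit.

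Of 12 genes of other Cys-loop channels 2 were marked, SecCl and HisCl1, where 44.9% of all protein-coding genes were. None of the 12 held a summit inside in at least 3 replicates, where 32.7% did. SecCl had percentiles of 53.5, 34.8, 74.7 and 82.1 in replicates 1 to 4, with the summits inside UQCR-Q and, in replicates 1 and 4, also inside CG46525, and HisCl1, a histamine-gated chloride channel gene, had 78.3, 57.4 and 70.8 in replicates 2 to 4, inside prd1. CG6927 had a summit in replicates 1 and 4, inside CG32772. The remaining 9 had none, where 48.5% of all protein-coding genes had none, among them alka, the GABA receptor gene Rdl and the glutamate-gated channel gene GluClalpha. The median of the mean percentiles was 0 for the receptor subunits, the cholinergic genes and the other Cys-loop genes, and 1.998 over all protein-coding genes. Absence counts as 0, so these medians of 0 restate that most genes of each list had no summit. Among protein-coding genes at least as long as the median receptor gene, 50.3% had none.

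Of the markers listed for tissues of a whole larva, 5 of 32 had a summit in any replicate. Of 12 neuronal markers 1 was marked, unc-13, and its summits in replicates 1 to 3 lay inside Gyf. elav, the pan-neuronal RNA-binding protein gene, had a summit inside its span in replicates 3 and 4. Its highest counted summits there were at percentiles of 18.1 and 21.5, and arg and lncRNA:enrr also held summits counted for it. nSyb, brp and Syt1 had none. Of 8 muscle markers 0 were marked, of 6 fat body markers 1, Lsp2, with every summit inside DEF8, and of 3 glial and 3 hemocyte markers 0. Over these 32 marker genes 2 were marked, where 44.9% of all protein-coding genes were, and 27 had no summit in any replicate, where 48.5% had none. Whether the number of receptor gene summits relates to the share of neurons in a larva was not tested.

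**Figure D5:**
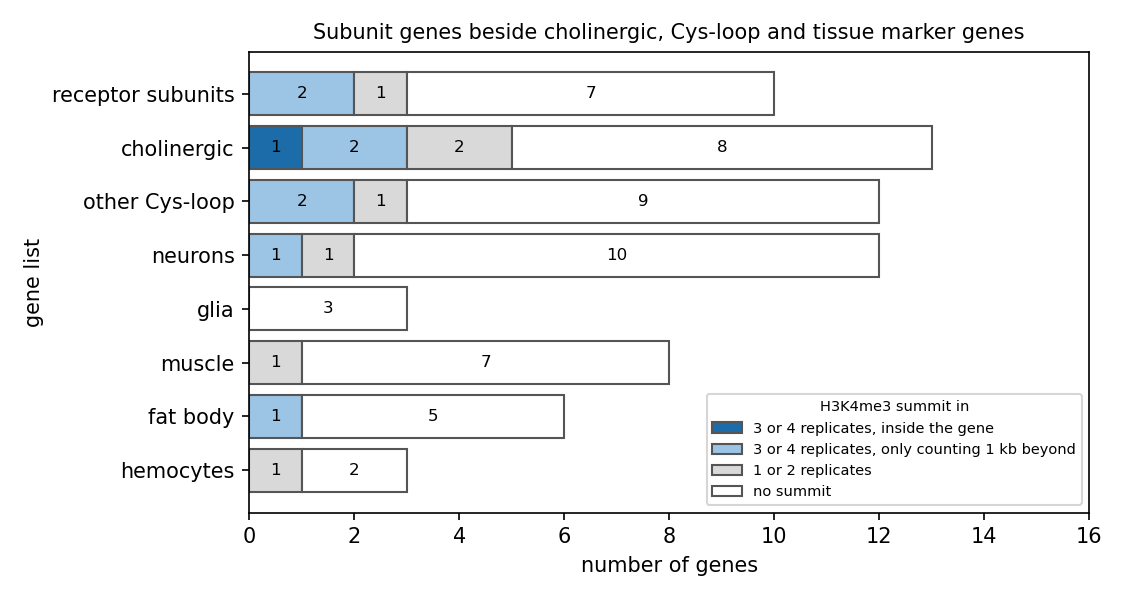
Number of genes in each list (bars) by how many fly replicates held an H3K4me3 summit, inside the gene or only when 1 kb beyond it was counted. The receptor subunits have 2 marked genes of 10, neither with a summit inside, and Adar in the cholinergic list is the 1 gene in the plot with a summit inside its span in at least 3 replicates.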

How the data were processed

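H3K4me3 ChIP-seq summits from 4 fly larval libraries were analysed. Per the labels the replicates are biological. The submitters' processing notes name MACS2, Picard 2.17.11, SAMtools 1.9, BWA 0.7.17, cutadapt 1.16 and FastQC 0.11.7. Parameters, genome build and whether the input was used are not given in the sources here. The deposited score of a summit looks like the −log10 of a p-value or q-value from the authors' peak caller: the lowest, 1.31 to 1.36, lie just above 1.301, the value at 0.05. Lists were called per library, and no summit with its score was shared between lists. No label names the build. On the Release 6 RefSeq gene table, the share of summits at most 500 bp away from an end of a coding gene was 84.7% to 87.2%, against 25.4% to 27.7% after a shift of 10000 bp. Positions are 1-based.

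Percentiles are ranks among all summits of a replicate, with absence counted as 0. Summits at most 250 bp apart formed 1 site. A gene was marked when at least 3 of 4 replicates had a summit inside it or up to 1 kb beyond its ends. With 1 group of samples no test between groups was made: counts stand beside the share over all protein-coding genes. The text names all receptor genes, the genes that hold or neighbour their summits, all marked genes of the cholinergic and Cys-loop lists and the alphabetically first gene of each without a summit. Genes that hold more distant summits, genes near a receptor gene that hold none, and other genes of the lists were named after their values were seen, and the length classes were set then too. The members and lists were chosen with earlier results of these data known. Of the listed genes all were matched by symbol or synonym, and CG7589 is the same gene as SecCl. Alternatives were other scores, windows, numbers of replicates, equal list lengths and each replicate left out. The search was tested on simulated summits. Python 3.11.15, numpy 2.4.6, pandas 2.3.3 and matplotlib 3.10.9 were used.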

Additional observations from a re-analysis of the deposited data

Results flagged for a closer look

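The percentile of nAChRalpha4 in replicate 4, 8.58, stood far from the other 3 replicates, at 0, 0.0402 and 0. The limit used here is passed by chance in about 1 of 20 groups of 4 measured values, and since absences are set to 0 that share does not apply to this gene. Without replicate 4 the mean percentile of nAChRalpha4 was 0.0134, against 2.16 with it.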

How the results depend on the processing

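The number of marked receptor genes stayed at 2 or 3 under 11 of 13 alternatives. It was 0 with scores of at least 10 and 0 with a window of 250 bp, beyond which the summits of nAChRalpha6 and nAChRbeta3 lie. The share of all protein-coding genes was 24.2% with scores of at least 10 and 33.9% with 250 bp. With each replicate left out, a summit was asked for in 2 of the remaining 3. The receptor count was then 2 to 3, beside 45.2% to 48.1% of all protein-coding genes, and the count with a summit inside was 0 to 1. That second count was 1 with at least 2 replicates and 1 with at least 1 replicate, through nAChRalpha4. The 4 sites became 2 with scores of at least 10, 2 with equal list lengths, 2 with 250 bp and 2 with gene ends alone. Marked cholinergic genes, 3 of 13, were 1 with 250 bp and 5 with at least 1 replicate. Marked Cys-loop genes, 2 of 12, were 1 with scores of at least 10, 0 with 250 bp and 1 with all 4 replicates. The alternatives for both of these lists and most for the sites were added after seeing the data. With a window of 2 kb the mean percentile of nAChRalpha6 was 71.7, above that of nAChRbeta3, 65.9. The wider window replaced the summit in CG13123, at 18.5, by the one in Fkbp59 at the other end, at 71.7, in replicate 3 alone. No paired analysis was possible because a single group of samples was analysed. Read depth is unknown, so a gene without a summit can be a peak missed at low depth.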
